A study of Mus musculus with 16 samples.

Results

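The 10 genes described here, Fos, Fosb, Jun, Junb, Jund, Egr1, Egr2, Atf3, Ier2 and Nr4a1, are immediate early genes that code for transcription factors or, for Ier2, for a small nuclear protein of the same early response. They were chosen by gene symbol, each was matched by exactly 1 probe of the array, and all 10 were among the 21897 genes and unnamed features tested. RNA of 4 populations sorted from C57BL/6 mice without treatment, whose age and sex the labels do not give, was labelled with Cy5 and hybridised to 16 Agilent mouse arrays, 4 per population. The 3 heart gates shared CD45, MerTK and CD64 on the surface, no Ly6c and exclusion of the dye DAPI, and came from minced and digested heart tissue. CCR2+ Mac cells were CCR2-high and MHC-II-high, MHC-IIHi Mac cells were CCR2-negative, MHC-II-high and CD11c-low, and MHC-IIlo Mac cells were CCR2-negative, CD11c-negative and MHC-II-low. Ly6cHi Mono cells were Ly6c-high monocytes of the blood, for which the labels describe no gate. Whether the replicates were separate mice or pools, and whether gates shared mice, is not stated in the labels, so p-values measure the spread between these samples, which may be technical.

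Immediate early genes are switched on within minutes of a signal such as a growth factor, a cytokine, a microbial product or mechanical stress, by factors already present in the cell and before new protein is made. Serum response factor at CArG boxes and CREB-family factors at cAMP response elements drive many of them, and the products then control a later wave of genes. In macrophages they are best known as part of the first transcriptional response to activation, and Nr4a1 is also known for its need in the Ly6c-low monocytes of the blood.

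Promoter sequences of 5 members are printed here because they carry motifs that were searched. Of the 10 genes, 8 were searched in the RefSeq promoter table (GRCm38.p6), and the 250 bases before each annotated start were used. Egr1 and Ier2 were not searched and are named only, so the motif counts do not cover them. Capitals mark the core of the cAMP response element, TGACG read on either strand, and the CArG box.
Fos promoter, chr12:85473640-85473889, plus strand: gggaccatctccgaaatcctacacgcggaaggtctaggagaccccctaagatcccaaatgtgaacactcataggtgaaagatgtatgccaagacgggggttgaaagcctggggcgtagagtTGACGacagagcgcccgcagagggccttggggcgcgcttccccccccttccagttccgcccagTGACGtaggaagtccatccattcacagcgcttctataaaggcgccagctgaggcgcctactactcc
Fosb promoter, chr7:19310046-19310295, minus strand: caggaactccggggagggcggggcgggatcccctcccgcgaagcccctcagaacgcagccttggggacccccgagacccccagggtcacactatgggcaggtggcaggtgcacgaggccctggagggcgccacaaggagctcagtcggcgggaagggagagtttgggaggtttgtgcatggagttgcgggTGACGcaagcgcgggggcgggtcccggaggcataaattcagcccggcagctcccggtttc
Junb promoter, chr8:84978749-84978998, minus strand: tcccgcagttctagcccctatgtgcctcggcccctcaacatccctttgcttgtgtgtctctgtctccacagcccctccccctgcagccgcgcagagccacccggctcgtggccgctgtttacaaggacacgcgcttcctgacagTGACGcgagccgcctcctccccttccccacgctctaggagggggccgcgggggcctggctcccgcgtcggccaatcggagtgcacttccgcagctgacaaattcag
Egr2 promoter, chr10:67537619-67537868, plus strand: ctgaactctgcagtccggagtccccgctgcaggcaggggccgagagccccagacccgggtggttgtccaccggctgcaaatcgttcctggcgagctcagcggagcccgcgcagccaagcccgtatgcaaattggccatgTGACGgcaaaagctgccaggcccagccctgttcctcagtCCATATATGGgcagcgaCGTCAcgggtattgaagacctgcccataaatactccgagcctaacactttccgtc
Nr4a1 promoter, chr15:101266596-101266845, plus strand: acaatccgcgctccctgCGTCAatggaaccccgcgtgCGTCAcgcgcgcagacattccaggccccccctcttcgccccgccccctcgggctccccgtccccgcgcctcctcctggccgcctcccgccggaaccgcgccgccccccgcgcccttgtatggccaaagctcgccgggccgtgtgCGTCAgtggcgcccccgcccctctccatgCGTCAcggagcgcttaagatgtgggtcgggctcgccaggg
The TGACG core was found in 6 of the 8 genes searched, namely Fos, Fosb, Junb, Egr2, Atf3 and Nr4a1, and in 17.8% of 32851 promoter windows of the same length. The gene count takes a match in any window of a gene, and the 8 genes had 12 windows. It is thus not the same measure as the share of windows. Nr4a1 held 4 copies, at bases -233, -213, -69 and -40 from its start, and Fos held copies at -129 and -66. A CArG box lay in Egr2, at base -72 of the printed window, and in 1.47% of all windows. The other motifs, also searched on both strands, were TATAAA (in Fos at -33 and in 12.4% of all windows), GCGNGGGCG, to which EGR proteins bind (in Fosb at -50, in Nr4a1 at -60 and in 4.7%), and TGANTCA, the AP-1 motif (in none of the members' windows and in 6.75%). No match of one motif overlapped a match of another. Egr2 had 5 annotated starts, of which 4 had a CArG box and 3 the TGACG core in their windows. The windows of those 3 starts overlapped and held the same CArG box and the same TGACG matches. A match is a string of letters in the genome and not a measured binding site.

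Levels are given as log2 of the processed signal minus the 75th percentile of the same array, so 0 is the signal at that percentile and a step of 1 is a doubling. Levels of different genes come from different probes and were not compared. Spots well above background made up 58.1% to 69.3% of each macrophage array and 52.8% to 60.1% of each monocyte array, and no spot was saturated. Of the members, 8 were well above background on all 16 arrays, Egr1 on 14 and Egr2 on 12, with the dim arrays in monocytes. The gate genes followed the labels: Mertk averaged 2.06, 2.59 and 2.71 in CCR2+, MHC-IIHi and MHC-IIlo Mac and -4.45 in monocytes, and Ccr2 averaged 0.56, -3.31 and -3.91 in the macrophage gates in that order and 1.06 in monocytes. Fcgr1, which codes for CD64, was at a similar level in monocytes (2.76) and in the 3 gates (2.89 to 3.08). The columns of the authors' deposited value table went against the labels: 12 of 16 matched, by their values, a scanner array of another group, so that table was not used and every value here rests on the labels of the scanner files. Arrays of a group took the same place on every slide, and the group and that place cannot be told apart.

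**Figure D1:**
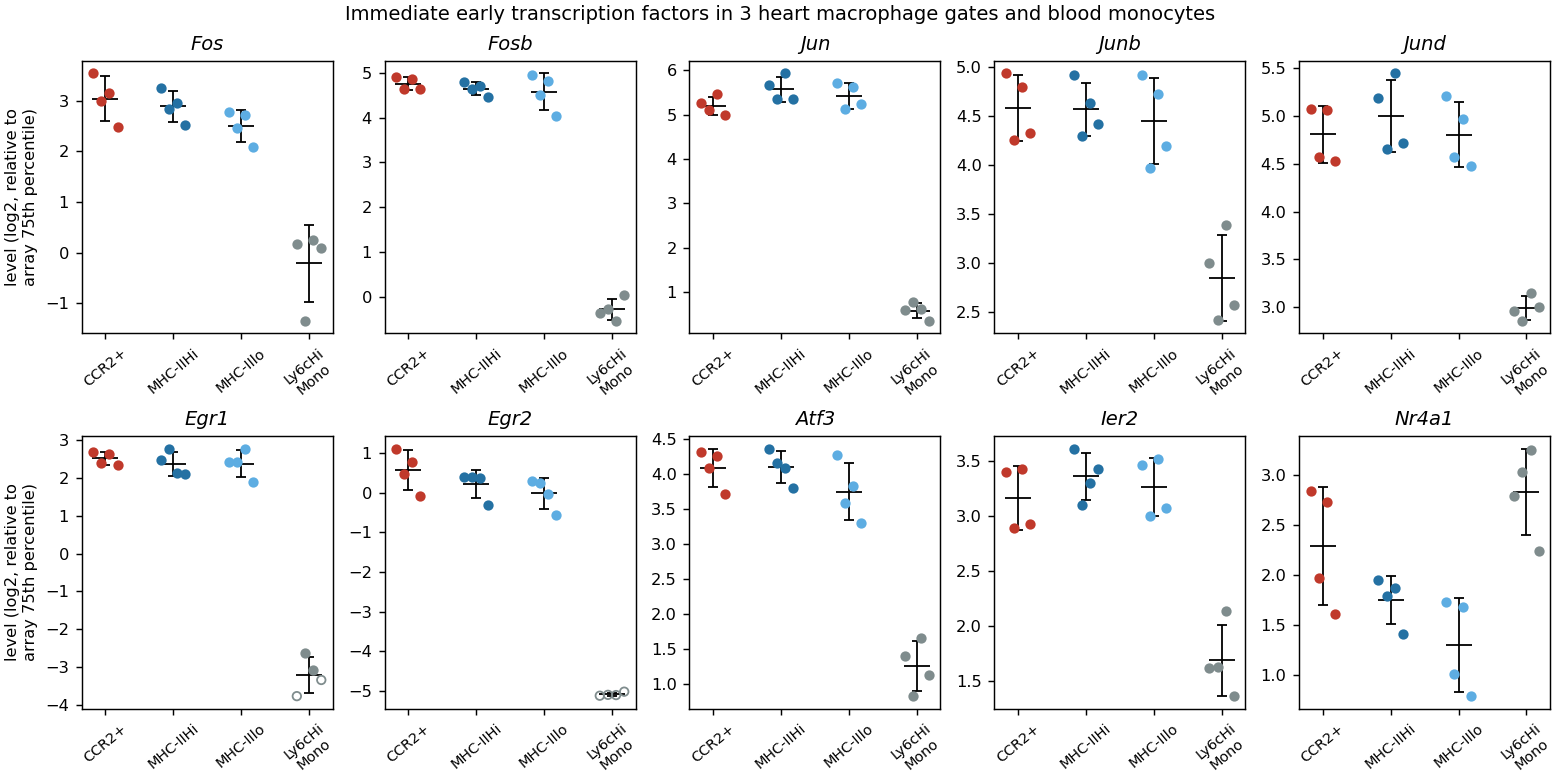
Level of each of the 10 genes (vertical axis, log2 relative to the array's 75th percentile) in 3 heart macrophage gates and blood monocytes, 1 point per array, open where the probe was not well above background, with mean and SD (n = 4 arrays per group). In all genes but Nr4a1 the 12 macrophage arrays lie above the 4 monocyte arrays.

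Heart macrophages of all 3 gates had higher levels of 9 of these genes than blood monocytes. The mean of the gates had a lower level of the tenth, Nr4a1. In CCR2+ Mac alone Nr4a1 did not pass the main test, and passed it only with the replicate number as a block. The mean of the 3 gates was 49.0-fold higher for Egr1, which was well above background on only 2 of 4 monocyte arrays and was 19.6-fold higher with the normexp background correction, which lifts dim signals. It was 31.0-fold higher for Fosb, 28.2-fold for Jun, 8.11-fold for Fos and 6.56-fold for Atf3, and the rises in Jund, Junb and Ier2 were smaller, between 2.99-fold and 3.69-fold. In these 9 genes every macrophage array exceeded every monocyte array. By limma with Benjamini-Hochberg adjustment over all features, 9 of 10 members were higher and 1 was lower at an adjusted p under 0.05, against 12.4% of all features higher, 14.9% lower and 27.4% in either direction. Of the 9, Egr1 and Egr2 passed the filter on dim probes only through the macrophage arrays, so their place in the count is a description. Arrays of the groups did not overlap upward for 6.33% of all features. The members' median difference was 2.87, against -0.069 over all features. The labels describe digestion for heart tissue only, so tissue, digestion and cell type cannot be told apart in these comparisons.

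**Figure D2:**
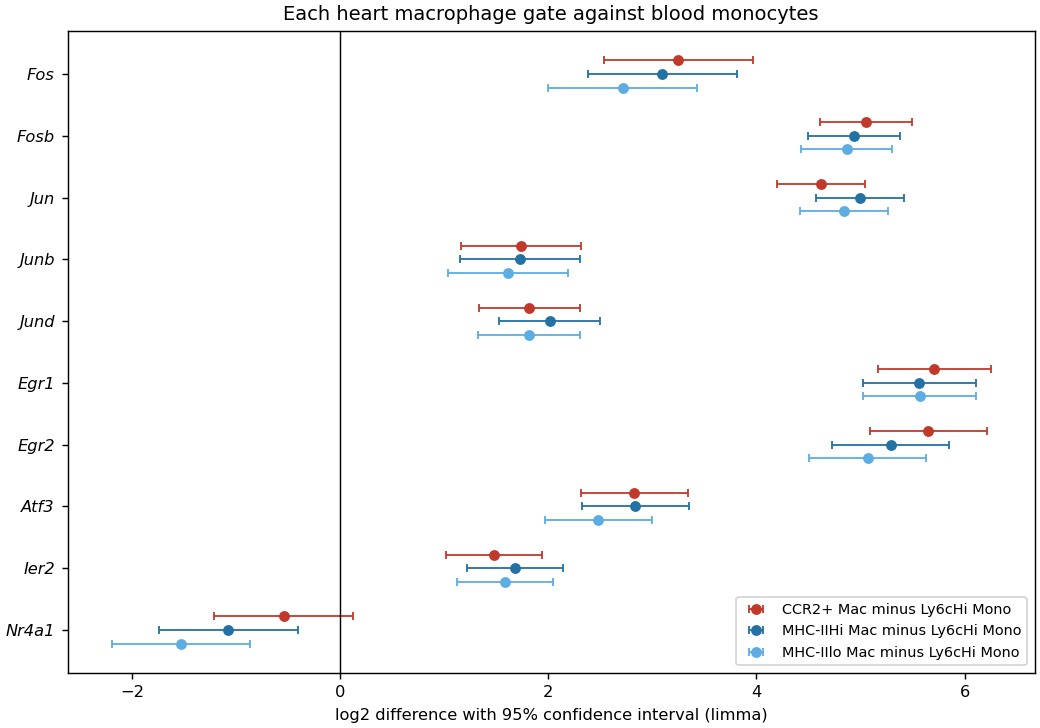
Difference in level between each heart macrophage gate and blood monocytes (horizontal axis, log2, with 95% confidence intervals from limma, 4 arrays per group) for the 10 genes. The 3 gates give similar differences in 9 genes, from 1.48 for Ier2 to 5.71 for Egr1, and Nr4a1 lies below 0 with an interval that includes 0 for CCR2+ Mac.

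Fos and Fosb code for Fos-family proteins, which bind DNA as AP-1 only when paired with a Jun protein. Fos had levels of 3.53, 3.00, 3.15 and 2.47 in CCR2+ Mac, 3.25, 2.83, 2.95 and 2.51 in MHC-IIHi Mac, 2.77, 2.46, 2.72 and 2.07 in MHC-IIlo Mac, and 0.17, -1.35, 0.24 and 0.090 in monocytes, replicates 1 to 4 in order. The groups of macrophages and monocytes did not overlap, and monocyte replicate 2 lay well below the other monocyte arrays. The difference between the mean of the gates and monocytes was 3.02 ± 0.27 (SE, adjusted p = 6.04e-07), and 2.64 without that monocyte array. Fos was printed in 10 spots per array, whose log2 signals had an SD of 0.035 to 0.086 within an array, far below the distance between the groups.

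Fosb had levels of 4.90, 4.64, 4.87 and 4.64 in CCR2+ Mac, 4.79, 4.64, 4.71 and 4.46 in MHC-IIHi Mac, 4.96, 4.51, 4.82 and 4.04 in MHC-IIlo Mac, and -0.36, -0.27, -0.55 and 0.027 in monocytes. The macrophage arrays lay close together and far above every monocyte array. The difference was 4.95 ± 0.17 (SE, adjusted p = 9.12e-12), which was the 78th highest of the 21897 features. On each slide it lay between 4.35 and 5.35.

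Jun, Junb and Jund code for the Jun proteins, the partners of Fos proteins in AP-1, which can also pair among themselves. Jun is induced quickly and can activate its own promoter, Junb is induced quickly as well, and Jund is known for a more constant expression. Jun had levels of 5.26, 5.09, 5.45 and 4.99 in CCR2+ Mac, 5.66, 5.35, 5.93 and 5.35 in MHC-IIHi Mac, 5.72, 5.11, 5.62 and 5.23 in MHC-IIlo Mac, and 0.59, 0.77, 0.61 and 0.34 in monocytes. The groups lay far apart, with a difference of 4.82 ± 0.16 (SE, adjusted p = 9.12e-12). Junb ran from 4.26 to 4.94 in CCR2+ Mac, from 4.30 to 4.92 in MHC-IIHi Mac, from 3.97 to 4.92 in MHC-IIlo Mac and from 2.42 to 3.39 in monocytes. Its lowest macrophage array and its highest monocyte array were thus much closer than those of Jun. The Junb difference was 1.69 ± 0.22 (SE, adjusted p = 2.91e-05). Jund ran from 4.53 to 5.07 in CCR2+ Mac, from 4.66 to 5.45 in MHC-IIHi Mac, from 4.48 to 5.21 in MHC-IIlo Mac and from 2.85 to 3.15 in monocytes. The monocyte arrays were tight and clearly lower, and the difference was 1.88 ± 0.19 (SE, adjusted p = 1.64e-06).

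Egr1 and Egr2 code for zinc finger factors that bind GC-rich sites and are held back by the corepressors Nab1 and Nab2. Egr1 had levels of 2.67, 2.39, 2.64 and 2.35 in CCR2+ Mac, 2.48, 2.77, 2.12 and 2.10 in MHC-IIHi Mac, 2.42, 2.43, 2.76 and 1.88 in MHC-IIlo Mac, and -3.76, -2.63, -3.07 and -3.34 in monocytes. Only 2 of the 4 monocyte arrays were well above background, and the groups lay far apart. The difference was 5.61 ± 0.21 (SE, adjusted p = 2.38e-11), which ranked 48th of all features. With normexp it was 4.29.

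Egr2 had levels of 1.11, 0.46, 0.77 and -0.077 in CCR2+ Mac, 0.39, 0.40, 0.36 and -0.32 in MHC-IIHi Mac, and 0.28, 0.25, -0.036 and -0.56 in MHC-IIlo Mac. Replicate 4 was the lowest array of each gate. None of the 4 monocyte arrays showed it well above background, and it read -5.12, -5.10, -5.10 and -5.02. Against the lowest signal among probes well above background on each monocyte array, or the probe's own where higher, Egr2 was at least 13.0-fold higher in CCR2+ Mac, at least 10.1-fold in MHC-IIHi Mac, at least 8.70-fold in MHC-IIlo Mac and at least 10.5-fold in their mean (adjusted p = 5.64e-11 for the last). It passed the filter on dim probes only through the macrophage arrays, where it is high, so its p and its place in the count of 9 are a description. The fitted difference of the mean was 5.34, and 2.94 with the normexp correction, so the size rests on how dim signals were treated. The normexp value is a smaller fold than the bound of 10.5, so the bounds hold only for the main processing.

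Atf3 codes for a stress-induced factor of the ATF/CREB family that in macrophages is known to damp inflammatory genes. It had levels of 4.31, 4.08, 4.24 and 3.71 in CCR2+ Mac, 4.36, 4.14, 4.09 and 3.79 in MHC-IIHi Mac, 4.26, 3.57, 3.82 and 3.30 in MHC-IIlo Mac, and 1.41, 0.83, 1.66 and 1.13 in monocytes. Every macrophage array was higher than every monocyte array, and replicate 4 was again the lowest of each gate. The difference was 2.71 ± 0.20 (SE, adjusted p = 4.58e-08). Ier2 ran from 2.89 to 3.43 in CCR2+ Mac, from 3.11 to 3.62 in MHC-IIHi Mac, from 3.00 to 3.52 in MHC-IIlo Mac and from 1.37 to 2.14 in monocytes. It had the smallest rise of the 9 genes, 1.58 ± 0.18 (SE, adjusted p = 5.79e-06), without overlap between the groups.

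Nr4a1 codes for Nur77, an orphan nuclear receptor, and was the member that did not follow the others. It had levels of 2.83, 1.97, 2.73 and 1.61 in CCR2+ Mac, 1.94, 1.78, 1.87 and 1.40 in MHC-IIHi Mac, 1.73, 1.00, 1.67 and 0.78 in MHC-IIlo Mac, and 2.79, 3.03, 3.25 and 2.24 in monocytes. All MHC-IIHi arrays lay below the monocyte arrays, as for 12.2% of all features, and so did all MHC-IIlo arrays, as for 12.3%, while CCR2+ Mac overlapped them. The mean of the 3 gates differed from monocytes by -1.05 ± 0.26 (SE, adjusted p = 0.00569), a 2.07-fold lower level. Nr4a1 was 2.89-fold lower in MHC-IIlo Mac (log2 difference -1.53 ± 0.31, SE, adjusted p = 0.00203) and 2.11-fold lower in MHC-IIHi Mac (-1.08 ± 0.31, SE, adjusted p = 0.0217) than in monocytes. The MHC-IIHi call was lost without monocyte replicate 2 (adjusted p = 0.0559), monocyte replicate 3 (0.0719) or MHC-IIHi replicate 4 (0.0674), with differences of -0.94 to -1.01.

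In CCR2+ Mac the Nr4a1 difference from monocytes was -0.54, with a 95% confidence interval of -1.21 to 0.13 (adjusted p = 0.257), and it passed the threshold when the replicate number was a block (adjusted p = 0.0333). The lower Nr4a1 level in the mean of the gates was also present under the other scalings, at -0.82 with quantile normalization and -1.13 with median scaling.

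Each gate alone gave the same count as the mean for the rising genes. Against monocytes, 9 of 10 members were higher and 0 lower in CCR2+ Mac (21.7% of all features called, 9.96% higher), where Nr4a1 did not pass. In MHC-IIHi Mac 9 were higher and 1 lower (21.4% called, 10% higher, 11.4% lower), as in MHC-IIlo Mac (21.3% called, 10.1% higher, 11.2% lower). The 3 comparisons share the monocyte arrays, and the place of Egr1 and Egr2 in each count is a description, as above. With the replicate number as a block, Nr4a1 was also called lower in CCR2+ Mac (adjusted p = 0.0333 by limma). In that fit 7397 of 21897 features were called.

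Between the gates themselves, the levels of the 10 genes were much closer. None of the 10 members passed the threshold by limma in CCR2+ Mac against MHC-IIHi Mac (1.25% of all features called), in CCR2+ Mac against MHC-IIlo Mac (2.76%) or in MHC-IIHi Mac against MHC-IIlo Mac (0.0685%). At an unadjusted p under 0.05 the counts were 0, 2 and 0, the 2 being Egr2 and Nr4a1. These counts are from the fit without the replicate number as a block. With it, limma called 1 member, Nr4a1 in CCR2+ Mac against MHC-IIlo Mac (adjusted p = 0.00651), and 1252 of 21897 features in that comparison. 

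**Figure D3:**
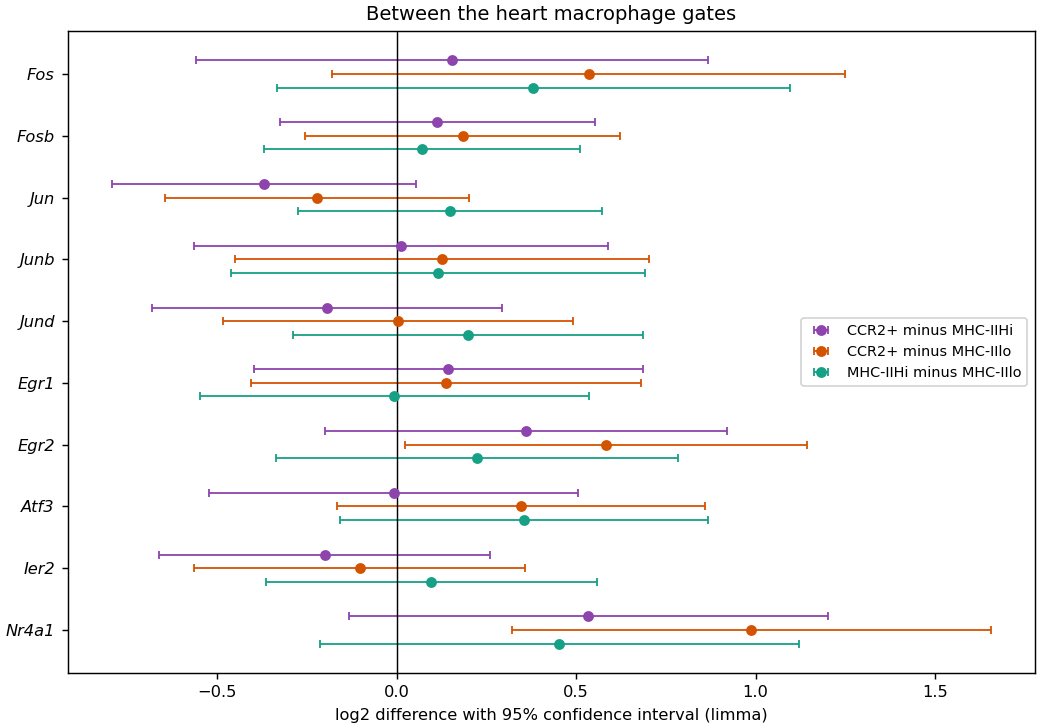
Difference in level between heart macrophage gates (horizontal axis, log2, with 95% confidence intervals from limma, 4 arrays per group) for the 10 genes. The differences lie between -0.37 for Jun and 0.99 for Nr4a1, and the interval of Nr4a1 between CCR2+ and MHC-IIlo Mac runs from 0.32 to 1.65.

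Across the 30 differences the 95% intervals, each for its own gene and unadjusted, ran from -0.79 at the lowest bound to 1.65 at the highest. Jun was 0.37 lower in CCR2+ Mac than in MHC-IIHi Mac, with an interval of -0.79 to 0.053 (adjusted p = 0.603), and it was lower on all 4 slides. Egr2 was 0.58 higher in CCR2+ Mac than in MHC-IIlo Mac, with an interval of 0.023 to 1.14 (adjusted p = 0.398), on all 4 slides. Fos was 0.54 higher in CCR2+ Mac than in MHC-IIlo Mac, with an interval of -0.18 to 1.25 (adjusted p = 0.624). In order of mean level, Fos, Fosb, Junb, Egr2 and Nr4a1 ran from CCR2+ Mac down through MHC-IIHi Mac to MHC-IIlo Mac. Jun and Ier2 were highest in MHC-IIHi Mac and lowest in CCR2+ Mac, Jund and Atf3 highest in MHC-IIHi Mac and lowest in MHC-IIlo Mac, and Egr1 highest in CCR2+ Mac and lowest in MHC-IIHi Mac. No neighbours in these orders differed past the threshold.

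Nr4a1 had the widest difference between gates. It was 0.99 ± 0.31 higher in CCR2+ Mac than in MHC-IIlo Mac (SE, 1.98-fold, adjusted p = 0.142), and on the 4 slides the difference was 0.83 to 1.11. With the replicate number as a block this passed the threshold (adjusted p = 0.00651), which made 1 of 10 members called. On every slide its level was highest in CCR2+ Mac, then in MHC-IIHi Mac, then in MHC-IIlo Mac. Its relative Nr4a2, an orphan receptor of the same family, was 2.04 ± 0.46 higher in CCR2+ Mac than in MHC-IIHi Mac (SE, adjusted p = 0.0421), a call lost with median scaling (0.0738), with no filter on dim probes (0.0527), with the groups compared only (0.15), with the mean of its kept probes (1.27, adjusted p = 0.0794) and without any 1 of 11 of the 16 arrays, CCR2+ replicates 1 to 3 and MHC-IIHi replicates 1, 2 and 4 among them (adjusted p up to 0.141). Nr4a2 averaged 0.43 in CCR2+ Mac, -1.61 in MHC-IIHi Mac and -1.52 in monocytes. Monocyte markers also differed between the gates: 3 of 4 tested, Ccr2, Plac8 and Ly6c1, were higher in CCR2+ Mac than in either other gate. Of these, Ccr2 codes for the protein on which the gates were sorted. The sum of the 4 markers' signals, each relative to the array's 75th percentile, was 5.79 to 20.6 in CCR2+ Mac, 2.44 to 3.22 in MHC-IIHi Mac, 2.74 to 3.39 in MHC-IIlo Mac and 117.2 to 172.1 in monocytes, and its part in the result was not tested.

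Within the macrophage gates the 10 genes varied together from slide to slide. Each slide held 1 array of every group and carried 1 replicate number. Slides 1 and 3 were set against slides 2 and 4 after seeing the data, so what follows is a description. In the macrophage arrays all 10 members were higher on slides 1 and 3, by 0.20 for Egr1 to 0.70 for Nr4a1 with a median of 0.44. Over all features the median of this difference was -0.091, and 45.7% of features were above 0. For 14.3% of all features this difference was above the members' median. In 6 of the 10 members both arrays of slides 1 and 3 exceeded both arrays of slides 2 and 4 in all 3 gates, as in 2511 of all 21897 features. In monocytes that order held for 3 of the 10 members, Fos, Junb and Atf3, and for 25.1% of all features.

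**Figure D4:**
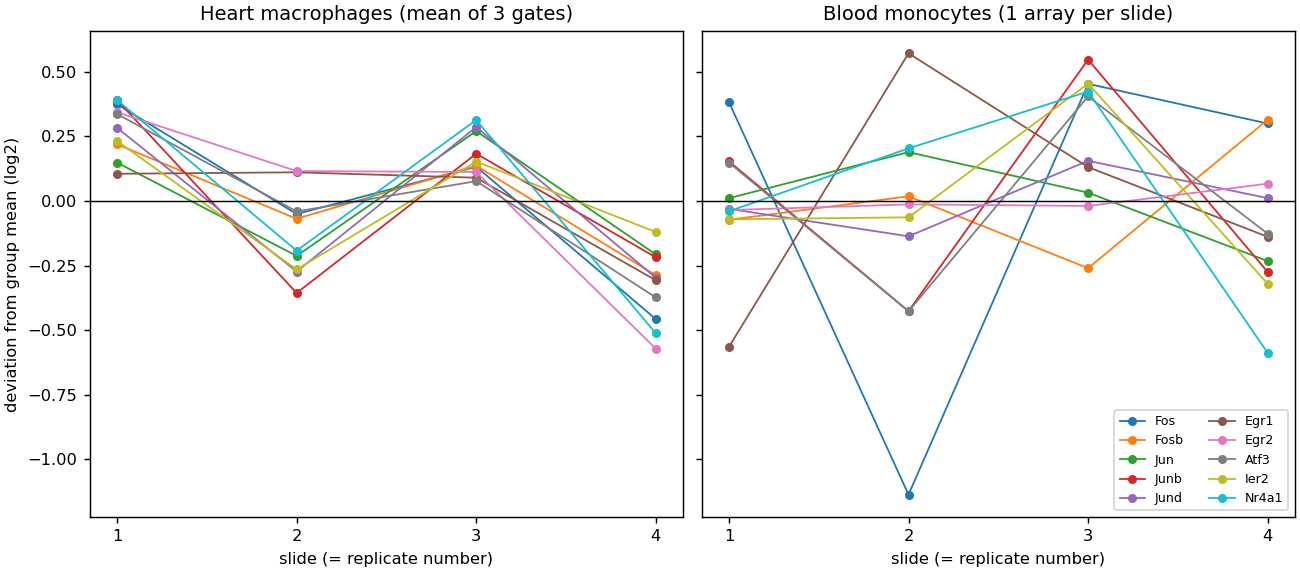
Deviation of each of the 10 genes from its group mean (vertical axis, log2) on the 4 slides, as the mean of the 3 heart macrophage arrays of a slide (left) and for the monocyte array of a slide (right), 1 line per gene. In macrophages all 10 genes lie above 0 on slides 1 and 3 and below 0 on slide 4, and on slide 2 only Egr1 and Egr2 lie above 0. In monocytes, where each point is 1 array, no slide has all 10 genes on the same side of 0.

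Over the 12 macrophage arrays, deviations of 2 members from their gate means correlated positively in 45 of 45 pairs of members, with Pearson's r from 0.21 to 0.95 and a median of 0.75. Arrays of a slide share that slide and arrays of all slides share the scaling rule, so this is a description. No share over all features is given beside it, so the count does not set the members apart from other genes. The share of spots well above background moved with the slides too, at 58.1% to 62.4% in macrophage arrays of slides 1 and 3 and 67.0% to 69.3% in those of slides 2 and 4, and its part in the pattern was not tested. On slides 1 and 3 alone and on slides 2 and 4 alone, 2 alternatives chosen after seeing the data, 9 members were higher in the mean of the gates than in monocytes and Nr4a1 was lower, at an adjusted p under 0.05.

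Other genes of the early response were taken from lists drawn up with earlier results of these data known. Of 12 other early transcription factors, 10 were tested, 7 were higher in the mean of the gates than in monocytes and 1 was lower, with a median difference of 1.76. Egr3, a further zinc finger factor of the Egr family, was at least 12.6-fold higher, Crem, which codes for CREM and the repressor ICER, was at least 5.81-fold higher, and Myc, well above background on 1 of 4 monocyte arrays, was 12.4-fold higher (3.63 ± 0.37, SE, adjusted p = 2.03e-06) and 4.56-fold with normexp. Klf10 was 2.54-fold lower (adjusted p = 0.00169). Of 26 early effector genes, which code for proteins other than transcription factors, all were tested, 19 were higher and 1 was lower, with a median of 2.07. On no monocyte array were 3 of the 10 other early factors and 5 of the 26 effectors well above background. These passed the filter on dim probes, which asks for 4 of 16 arrays, only through the macrophage arrays. The same holds for Myc, Arc and Ccn1, with fewer than 4 monocyte arrays well above background. The place of all these genes in the counts, and their p, are thus a description. Genes not named were counted here only where no monocyte array was well above background. Plk2, a polo-like kinase, was at least 35.9-fold higher, and Btg1, which restrains cell division, was 2.28-fold lower, or 1.34-fold with the mean of all its kept probes. Arc, best known from neurons, was well above background on 2 of 4 monocyte arrays and was 49.0-fold higher, or 18.3-fold with normexp. Ccn1, a matricellular protein, was well above background on 1 of 4 monocyte arrays and was 31.4-fold higher, or 7.23-fold with normexp. The genes given as bounds were also closer to monocytes with normexp, at 19.3-fold for Plk2, 6.35-fold for Egr3 and 3.87-fold for Crem. Crem was 4.73-fold higher with the mean of its kept probes. These values lie below the bounds, which thus hold only for the main processing.

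**Figure D5:**
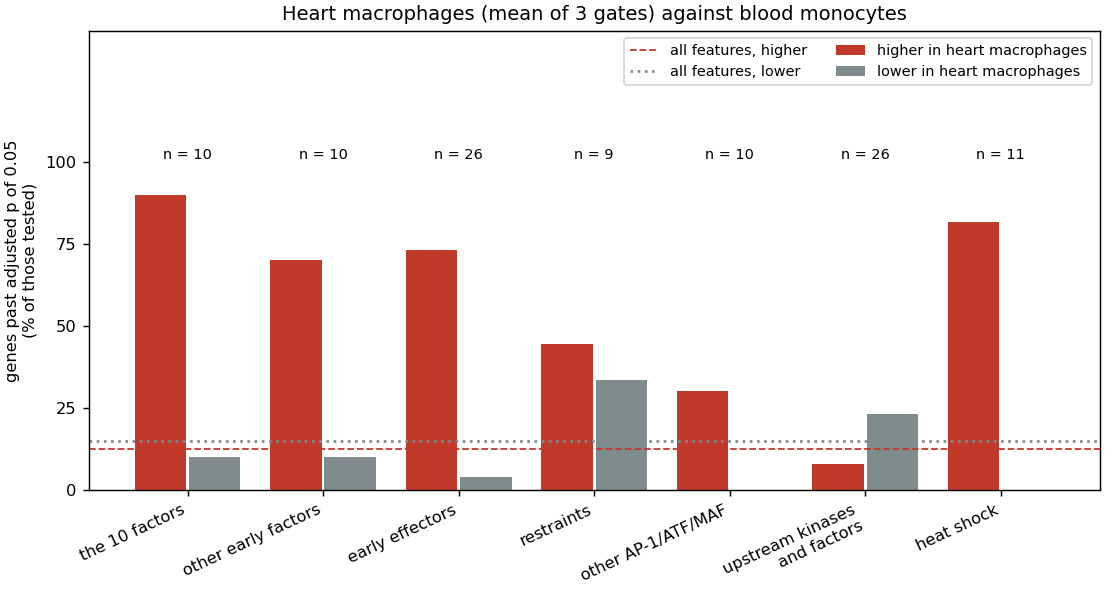
Share of tested genes in each list (vertical axis, percent, n above the bars) that were higher or lower in the mean of the 3 heart macrophage gates than in blood monocytes at an adjusted p under 0.05, with the shares of all features as lines (12.4% higher, 14.9% lower). The 10 factors, the other early factors, the early effectors and the heat shock genes have 70% or more of their genes higher, and the upstream regulators 7.69%.

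Of the other members of the AP-1, ATF and MAF families, 10 were tested, 3 were higher in heart macrophages and 7 did not pass, with a median difference of 0.13. The 3 were Jdp2, a repressor of AP-1 that was well above background on 2 of 4 monocyte arrays (1.72 ± 0.25, and 0.85 with normexp), Atf4, the factor of the integrated stress response (1.11 ± 0.16), and Batf2 (0.83 ± 0.21, SE in each case). The Batf2 call was lost with median scaling (adjusted p = 0.0559). Jdp2 passed the filter on dim probes only through the macrophage arrays, so its place in the count is a description. Among 26 tested kinases, coactivators and factors upstream of the early genes, 2 were higher and 6 lower, with a median of -0.28. Mrtfb was 2.25-fold and Mef2c 1.72-fold higher, the call of Mef2c being lost with median scaling (adjusted p = 0.0603). Mapkapk2, a kinase below p38, was 2.14-fold lower, and Mrtfa, a coactivator of serum response factor, was 1.84-fold lower.

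Genes that restrain the response moved in both directions, with 4 of 9 tested higher and 3 lower. Of the 4, Dusp10 had 0 of 4 monocyte arrays well above background, and its macrophage mean lay below the lowest signal called so on those arrays, so no fold is given. It passed the filter on dim probes only through macrophage arrays, so its place in the count is a description. Dusp1, a phosphatase that switches off p38 and JNK, was 7.76-fold higher (2.96 ± 0.24, SE, adjusted p = 1.34e-07), Spred1, an inhibitor of Ras signalling, was 6.00-fold higher, and Nab2, the corepressor of Egr proteins, was 4.16-fold higher. The related corepressor Nab1 was 2.26-fold lower, and the MAP kinase phosphatases Dusp5 and Dusp6 were 2.01-fold and 1.57-fold lower. The Dusp6 call was lost with quantile normalization (-0.30, adjusted p = 0.189), with normexp, and without monocyte replicate 2 (adjusted p = 0.0583) or 3 (0.0623). Between the gates, Dusp10 was at least 2.53-fold higher (2.40-fold with normexp) and Dusp2 5.76-fold higher in CCR2+ Mac than in MHC-IIlo Mac. Dusp10 was not well above background on any MHC-IIlo array. Of the early effectors, Ccn1 was lower in CCR2+ Mac than in MHC-IIHi Mac (-2.73 ± 0.47, SE, adjusted p = 0.00766) and MHC-IIlo Mac (-2.88 ± 0.47, SE, adjusted p = 0.0024). Pim1 and Btg1 were 2.65-fold and 1.86-fold higher in CCR2+ Mac than in MHC-IIlo Mac, and Batf3, a partner of Jun proteins, was 2.05-fold higher. The Btg1 call was lost without CCR2+ replicate 1 (adjusted p = 0.0559), and that of Batf3 without any of CCR2+ replicates 1, 2 and 3 or MHC-IIlo replicates 2, 3 and 4 (adjusted p from 0.061 to 0.0972). Both calls were also lost with median scaling (0.125 for Btg1, 0.105 for Batf3) and with the groups compared only (0.0707 and 0.0597).

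Heat shock genes and transcripts of other heart cells moved with these differences. Of 11 tested heat shock genes, 9 were higher in the mean of the gates than in monocytes and 2 did not pass, with Hspb1 at least 12.7-fold, Hspa1a 59.1-fold (5.89 on the log2 scale, and 5.25 with normexp) and Hsph1 4.33-fold higher. All 9 tested cardiomyocyte markers of 10 listed were higher in heart macrophages, and the sum of their signals, each relative to the array's 75th percentile, was 20.0 to 39.0 in macrophage arrays and 2.50 to 3.27 in monocyte arrays, where 4 of the 9 were not well above background on any array. Of 5 tested fibroblast markers 4 were higher, with sums of 3.80 to 10.3 in macrophage arrays and 1.18 to 1.39 in monocyte arrays, and of 9 tested endothelial markers 4 were higher, with sums of 6.21 to 11.4 and 2.86 to 5.37. On no monocyte array were 3 of the 5 fibroblast markers and 1 of the 9 endothelial markers well above background. Such genes, Hspb1 and the 4 cardiomyocyte markers among them, passed the filter only through the macrophage arrays, so their place in the counts is a description. The 4 tested monocyte markers, whose sums are given above, were all lower. The part of other cells' RNA in the early gene levels was not tested. In bulk RNA, fewer cells of a type and less RNA per cell cannot be told apart.

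The 5 other genes whose levels over the 16 arrays were most like the mean standardized profile of the members were Irf2bp2 (Pearson's r = 0.989), Gadd45b (0.988), Ptms (0.987), Plk3 (0.986) and Ppp1r15a (0.986). The members correlated with their own mean profile at 0.966 to 0.993, except Nr4a1 at -0.446. These values mainly follow the distance between macrophage and monocyte arrays and are a description. Ppp1r15a, which codes for the stress-induced phosphatase subunit GADD34, ran from 3.08 to 3.83 in macrophage arrays and from 0.73 to 0.88 in monocyte arrays.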

How the data were processed

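Scanner files of 16 arrays were used with their own sample labels. Per the file headers, they were made with Agilent Feature Extraction 11.5.1.1, and the deposited processed signal is a background-corrected intensity without scaling between arrays. The authors' deposited value table holds log2 signal, and Partek is named in the submitters' processing notes without a step. None of its 16 columns matched the scanner array of its own label (r at most 0.969, against at least 0.995 with the matching array) and 12 matched an array of another group, so it served only for this check. The deposited detection flags mark spots as well above background and are not levels.

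Control spots (1377 of 44397) and spots marked as outliers were left out, spots of a probe were averaged, and 110 of 39429 probes without an unmarked spot on some array were dropped. The log2 of each signal was taken and the array's 75th percentile subtracted. Probes well above background on at least 4 of 16 arrays were kept (27643), and the brightest probe stood for a gene, which left 21897 features. Names came through RefSeq accessions (GRCm38.p6) for 27441 probes. limma 3.58.1 in R 4.3.3 was fitted over all 16 arrays with a mean per group, with Benjamini-Hochberg adjustment over all features and a threshold of 0.05. This procedure was run on simulated data for CCR2+ against MHC-IIHi Mac only, with independent arrays and no slide effect. That run thus does not cover arrays that are alike within a slide. The number of arrays limits the precision.

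The replicate numbers coincided with the slides. Deviations of same-numbered arrays from their group means correlated at 0.139 to 0.640 in all 24 pairs (median 0.342) and those of different number at -0.536 to 0.492 in 72 pairs (median -0.19), so some arrays of different slides were as alike. Since every same-numbered pair was over 0.1, the numbers were taken to pair the arrays, and the fit with the number as a block is given where it changed a call. All other SEs, intervals and p-values are from the fit without that block and do not use the pairing. Named genes were all 10 members, up to 3 genes per list and direction with the largest difference among those past the threshold, and the 5 genes with the most similar profile. One gene that this rule names is not reported here. Members and lists were chosen with earlier results of these data known. Alternatives were other scalings, background corrections, filters and probe rules, array weights, and leaving out each array.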

Additional observations from a re-analysis of the deposited data

Results flagged for a closer look

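Each member was examined in each group for an array apart from the other 3, by the gap to its nearest neighbour over the range of the group (Dixon's criterion). This marked 2 of 40 sets, and chance alone marks about 1 in 20. Fos in Ly6cHi Mono replicate 2 was at -1.35, against 0.090 to 0.24 in the other 3 monocyte arrays, a gap of 0.903 of the range. Without that array the Fos difference between heart macrophages and monocytes was 2.64 in place of 3.02 on the log2 scale. Egr2 in MHC-IIHi Mac replicate 4 was at -0.324, against 0.36 to 0.40 in the other 3 arrays of the gate, a gap of 0.942 of the range. Replicate 4 was also the lowest Egr2 array of CCR2+ Mac and MHC-IIlo Mac. No cause was tested for either array.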

How the results depend on the processing

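In the mean of the 3 gates and in each gate, the 9 members above monocytes stayed above at an adjusted p under 0.05 under every alternative run, and Nr4a1 in the mean stayed below, from -1.25 to -0.82. Counting all alternatives, 1845 recomputed values of single genes kept their direction and side of the threshold. In CCR2+ against MHC-IIlo Mac, the replicate block called 1 member, Nr4a1, in place of 0, and it changed no other call but that of Nr4a1 in CCR2+ Mac against monocytes (-0.54). Nr4a1 in MHC-IIHi Mac against monocytes lost its call on slides 1 and 3 (-1.11) and on slides 2 and 4 (-1.04). All 38 changes of sign concerned differences between gates that never passed the threshold, and the cause was not tested. For CCR2+ minus MHC-IIHi Mac, Atf3 (-0.0086) became 0.040 with median scaling, 0.14 with normexp, 0.072 with quantile normalization, 0.057 on slides 1 and 3, and ran from -0.11 to 0.12 without 1 array, Egr1 (0.14) became -0.049 with array weights and -0.067 on slides 2 and 4, Fos (0.15) ran from -0.011 to 0.34 without 1 array, and Junb (0.011) became -0.069 on slides 2 and 4 and ran from -0.11 to 0.13 without 1 array. For CCR2+ minus MHC-IIlo Mac, Jund (0.0034) became -0.0072 with normexp, -0.018 on slides 1 and 3 and ran from -0.11 to 0.14 without 1 array, Fosb (0.18) became -0.0011 on slides 1 and 3, and without 1 array Egr1 (0.14) ran from -0.026 to 0.27 and Junb (0.13) from -0.033 to 0.28. For MHC-IIHi minus MHC-IIlo Mac, Egr1 (-0.0061) became 0.24 with array weights, 0.033 with quantile normalization, 0.28 on slides 2 and 4 and ran from -0.17 to 0.12 without 1 array. On slides 1 and 3 Fosb became -0.14, Ier2 -0.036 and Junb -0.045, and without 1 array Fosb ran from -0.11 to 0.20 and Junb from -0.044 to 0.27.

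For the named genes of the other lists, 831 of 890 recomputed values kept their direction and side of the threshold and the other 59 kept their direction only. On slides 1 and 3 alone the upstream regulators had 0 higher in place of 2 and the heat shock genes 5 in place of 9, and with median scaling 1 upstream regulator was higher.

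Counts of features called moved with the fit. CCR2+ against MHC-IIHi Mac gave 273 calls, 548 with the block, 172 with median scaling, 929 with array weights, 2 on slides 1 and 3, 34 on slides 2 and 4, 160 and 153 without CCR2+ replicates 1 and 2, and 166 without MHC-IIHi replicate 3. CCR2+ against MHC-IIlo Mac gave 605, with 1252, 378, 1203, 67 and 304 under the same 5 settings and 333 with the groups compared only. MHC-IIHi against MHC-IIlo Mac gave 15, with 77, 4, 89, 0 and 2, 0 with the groups compared only, 0 without MHC-IIlo replicate 2 or 3, and 2, 8 and 4 without MHC-IIHi replicates 1, 3 and 4. Against monocytes, CCR2+ Mac gave 4742, 7397 with the block, 8456 with no filter and 1467 on slides 1 and 3, MHC-IIHi Mac 4686 and 1785 on slides 1 and 3, MHC-IIlo Mac 4659, 7050 with the block and 1858 on slides 1 and 3, and the mean 5990, 9611 with no filter and 2934 on slides 1 and 3.

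Over all features, heart macrophages against monocytes gave 2719 higher and 3271 lower calls, 2002 and 4799 with normexp, and 2824 and 6787 with no filter on dim probes. The median of all features there was -0.069, and -0.15, -0.23 and -0.21 with median scaling, normexp and no filter, so members' values under these are relative to a shifted middle. Dim probes, such as those of Egr2 and Dusp10 in monocytes, limit the size of a difference, and for Dusp10 in the mean of the gates also its direction.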
